A study of Mus musculus with 32 samples.

Results

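The 6 genes described here, Marco, Msr1, Olr1, Stab1, Stab2 and Scarb1, encode scavenger receptors of macrophages, of the endothelium that lines sinusoids and lymphatics, and of cells that exchange sterols with lipoproteins. They were taken as every probe set annotated to 1 of these symbols alone, which gave 12 of the 45101 probe sets of an Affymetrix Mouse Genome 430 2.0 array: 4 for Msr1, 3 for Scarb1, 2 for Marco and 1 each for Olr1, Stab1 and Stab2. Messenger RNA was measured on 32 such arrays in mesentery, the sheet of fat, vessels and lymphoid tissue from which the intestine hangs. Pristane (TMPD), a mineral oil hydrocarbon, had been injected into the peritoneal cavity at 0.5 ml, and the tissue was collected 3 or 18 days later. The pristane groups were BALB/c (3 arrays), BALB/DBA F1 hybrid (3) and DBA (3) at day 3, and BALB/c (4) and DBA (3) at day 18. Each was set against untreated mice of its own strain whose arrays carry title codes of the same run: BALB/c (3), F1 (3) and DBA (3) in the day 3 run, and BALB/c (4) and DBA (3) in the day 18 runs. The strain is given as DBA with no substrain, no age or sex is given, and no group carries an engineered allele. The labels state neither what the codes mean nor whether each array is an animal of its own, so the p-values reflect spread among arrays that could be technical. The BALB/c and DBA arrays of day 18 carry different codes.

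Scavenger receptors bind polyanionic and modified ligands, such as oxidised or acetylated lipoproteins, bacterial surface molecules and dying cells, and most carry them into the cell for degradation. Marco and Msr1 are trimeric class A receptors of macrophages with a collagenous stalk, and Marco is typical of macrophages of the splenic marginal zone, the lung and the peritoneal cavity. Olr1 (LOX-1) is a C-type lectin-like receptor for oxidised LDL, found on endothelium and on activated myeloid cells. Stab1 and Stab2 are large stabilins: Stab1 is carried by sinusoidal endothelium and by alternatively activated macrophages, and Stab2 is the main clearance receptor for hyaluronan on sinusoidal endothelium of liver, spleen and lymph node. Scarb1 (SR-BI) is a class B receptor that takes up cholesteryl esters from HDL and is abundant in liver, steroid-forming cells and adipocytes.

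The bases upstream of Marco, Stab1 and Stab2 are shown because the results turn on how these members vary with strain and treatment. They come from RefSeq, build GRCm38.p6, in which 4 of the 6 members had a promoter entry (Marco, Stab1, Stab2 and Olr1). Each runs 5′ to 3′ on the minus strand, ends where the annotated gene begins and is cut to the part outside it. Capitals mark matches to GAGGAA, a core bound by PU.1, the transcription factor of myeloid cells, searched on both strands.
Marco, chr1:120505025-120505274: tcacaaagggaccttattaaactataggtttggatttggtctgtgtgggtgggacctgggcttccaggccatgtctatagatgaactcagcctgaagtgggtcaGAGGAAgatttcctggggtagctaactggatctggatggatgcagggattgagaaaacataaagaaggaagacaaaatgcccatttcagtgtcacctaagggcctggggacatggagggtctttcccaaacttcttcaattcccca
Stab1, chr14:31168652-31168891: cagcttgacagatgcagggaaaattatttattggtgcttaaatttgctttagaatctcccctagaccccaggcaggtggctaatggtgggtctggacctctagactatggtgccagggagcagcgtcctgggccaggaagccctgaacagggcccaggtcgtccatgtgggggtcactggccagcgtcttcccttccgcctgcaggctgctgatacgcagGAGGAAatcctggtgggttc
Stab2, chr10:87008039-87008192: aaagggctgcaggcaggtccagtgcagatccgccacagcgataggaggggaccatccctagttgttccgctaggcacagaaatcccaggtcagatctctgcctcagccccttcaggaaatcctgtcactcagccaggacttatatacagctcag
The match in Marco starts 146 bases before the end of its 250 bases, and that in Stab1 starts 20 bases before the end of its 240. Of 32851 mouse promoter windows, 23.3% hold GAGGAA in 250 bases and 22.4% in 240. No match was found in the 154 bases of Stab2, a length at which 14.8% of windows hold one. The shares for 240 and 154 bases were counted in the last bases of the 250 upstream of each gene. The Stab1 and Stab2 stretches are the first 240 and 154 of theirs, so those shares match in length and not in position. The AP-1 motif TGANTCA and the TATA box TATAAA had no match in these 3 stretches, and 6.75% and 12.4% of windows hold them in 250 bases. The motifs were chosen with the expression results known, and a match is a string of letters, not a measured site.

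Values are MAS5 signals on a linear scale, scaled by the authors to the same trimmed mean on every array. They describe 1 probe set across arrays and do not rank different genes. A probe set was tested if its signal was above 103.7, the median of all values, on at least 3 arrays; 27039 passed, among them all 12 of the members. Both Marco probe sets, the one of Olr1 and 1 of Msr1 (1425435_at) passed only through pristane-treated arrays, so that a difference between treated and control arrays, and for Marco between strains, is built into having passed, and their p-values are given as descriptions. Changes were fitted as log2(signal + 24.9), which understates the change of dim probe sets, and "rose" and "fell" stand for a limma adjusted p under 0.05. The brightest probe set of a gene is its leading one. Array medians ran from 90.6 to 135.3, and the best correlation of an array with another of its group was 0.975 or above except for 1, replicate 2 of the BALB/c controls in the day 18 run, which reached at most 0.891 with any array and carried a summed pancreatic acinar signal of 832053, against 126360 on the next highest array. Xist was above the Y-linked Kdm5d on 21 arrays, and because that held for all 3 treated F1 arrays and none of the 3 F1 controls, treatment and sex cannot be told apart in the F1 response.

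After pristane, the mesentery held more RNA of the macrophage scavenger receptors in most comparisons, Scarb1 was called lower at day 18 alone with day 3 values of the same sign, and Stab2 passed the test in none of the 5 responses. In a tissue sample, more cells of a type and more RNA per cell cannot be told apart. Msr1, Olr1 and Stab1 rose in all 5 responses. Marco rose in the F1 at day 3 and in DBA at both times and was not called in BALB/c, and Scarb1 fell in both day 18 responses. Of the 12 probe sets, 6 rose and 0 fell in BALB/c at day 3, where 29.5% of all probe sets were called (15.2% higher). In the F1 at day 3, 8 rose and 0 fell (30.2% of all called, 15.5% higher), and so it was in DBA at day 3 (23.6% called, 13.6% higher). At day 18, 6 rose and 3 fell in BALB/c (37.9% called, 18.7% higher and 19.2% lower), and 8 rose and 3 fell in DBA (39.4%, 19.2% higher and 20.2% lower). Of those that rose, 2 in each BALB/c response and 4 in each of the other 3 were probe sets that passed through treated arrays only, so that nothing is read from these counts against the shares of all probe sets. The limma fit gave 3 lower probe sets at an unadjusted p under 0.05 in each day 3 response, all of Scarb1, and an ordinary linear model called 0 of them. The median log2 change over the 12 was 0.85, 2.36 and 2.29 in BALB/c, F1 and DBA at day 3 and 0.90 and 3.23 in BALB/c and DBA at day 18, with medians over all probe sets between -0.04 and 0.02. The probe sets that passed through treated arrays only are among the 12, so nothing is read from these medians either.

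**Figure D1:**
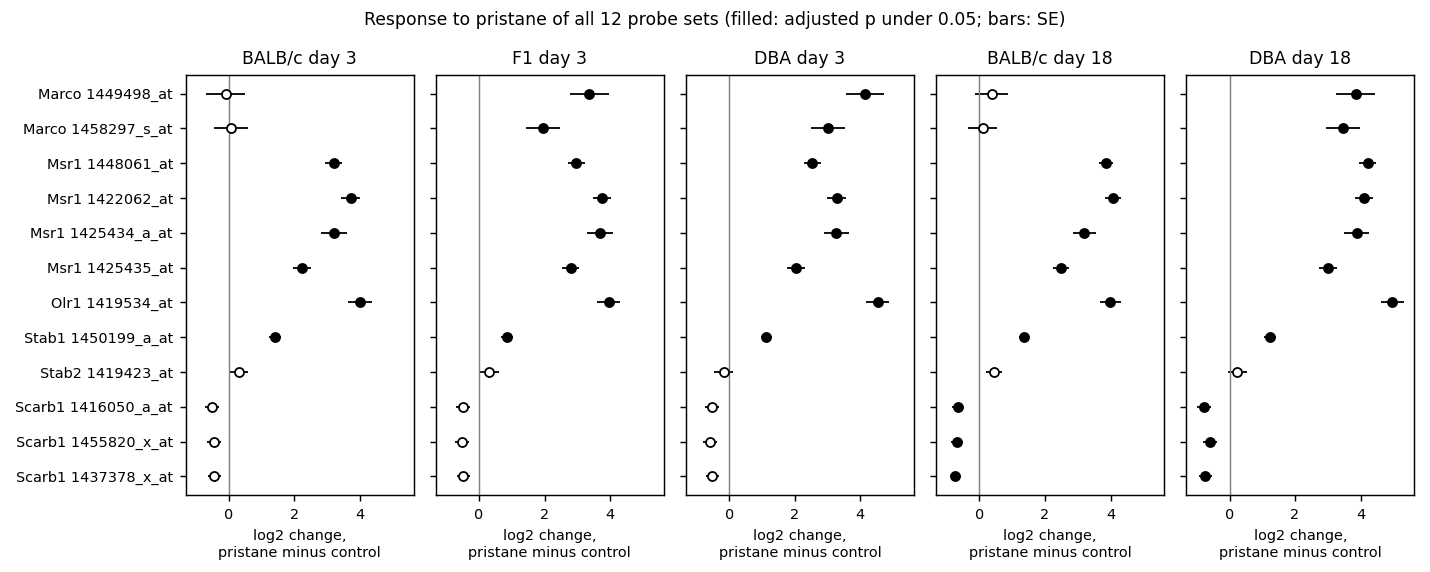
Log2 change of all 12 probe sets, pristane minus untreated controls of the same strain and run, in the 5 responses; filled points have a limma adjusted p under 0.05 and bars are SE. The 4 Msr1 probe sets, Olr1 and Stab1 lie to the right of 0 throughout, both Marco probe sets stay near 0 in BALB/c, and the 3 Scarb1 probe sets lie to the left of 0 in each panel.

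Marco, the class A receptor of resident and marginal zone macrophages, divided the strains. At day 3 its leading probe set (1449498_at) read 807, 809 and 404 in treated DBA mice, against 5.5, 22.8 and 12 in DBA controls. In the F1 it read 489, 203 and 289 after pristane, against 4.8, 9.4 and 7.9 in controls. In BALB/c it read 1.5, 4.6 and 2.3 after pristane, against 1.4, 5.1 and 8.2 in controls. All treated DBA and F1 arrays were above 103.7 and above every control of their strain and run, as 25% and 23.2% of all probe sets were in DBA and the F1, whereas the BALB/c arrays overlapped at the bottom of the scale. The log2 changes were 4.15 ± 0.59 in DBA (SE, 3 against 3 arrays, adjusted p = 8.71e-06), 3.37 ± 0.59 in the F1 (adjusted p = 8.1e-05) and -0.10 ± 0.59 in BALB/c (adjusted p = 0.923).

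At day 18 Marco read 4052, 207 and 938 in treated DBA mice, against 15.4, 61.9 and 62.3 in DBA controls, a log2 change of 3.85 ± 0.59 (adjusted p = 7.3e-06). In BALB/c it read 22.7, 5.2, 61.5 and 11.7 after pristane, against 4.7, 33.3, 4.8 and 6.1 in controls, with a change of 0.38 ± 0.51 (4 against 4 arrays, adjusted p = 0.596). Marco was under 103.7 on all 14 BALB/c arrays, treated or not. Every treated DBA array stood above every DBA control at day 18 as well (27.1% of all probe sets did), with a wide spread among the treated arrays. Since all controls were under 103.7, each rise is better given as a bound: the geometric mean of the treated arrays was at least 6.19-fold higher than that threshold in DBA and 2.95-fold higher in the F1 at day 3, and 8.90-fold higher in DBA at day 18.

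The second Marco probe set (1458297_s_at) gave a similar picture at lower signals and correlated with the first at 0.97 over the 32 arrays. It was above 103.7 on 8 arrays, against 9 for the first. At day 3 it read 371, 329 and 159.5 in treated DBA mice, against 3.2, 7.1 and 28.8 in DBA controls. It rose by 3.02 ± 0.52 there, by 1.93 ± 0.52 in the F1 and by 3.46 ± 0.52 in DBA at day 18, and stood at 0.06 and 0.09 in BALB/c at day 3 and day 18.

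Msr1, the class A receptor that gives macrophages much of their uptake of modified LDL, rose in every strain at both times. At day 3 its leading probe set (1448061_at) read 2797, 3238 and 2920.1 in treated BALB/c mice, against 357, 235 and 334 in controls. In the F1 it read 3778, 3159 and 3454 after pristane, against 374, 337 and 593 in controls, and in DBA 2539, 2004 and 1364, against 340.1, 352 and 244 in controls. Every treated array was above every control of its comparison (as were 23.8% of all probe sets in BALB/c, 23.2% in the F1 and 25% in DBA), and the treated DBA arrays were the lowest of the treated ones. The log2 changes were 3.19 ± 0.26 in BALB/c (adjusted p = 6.1e-10), 2.96 ± 0.26 in the F1 (adjusted p = 1.51e-09) and 2.54 ± 0.26 in DBA (adjusted p = 5.87e-08).

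By day 18 Msr1 read 5727, 3679, 3307 and 4682 in treated BALB/c mice, against 278, 192, 348 and 285 in controls, a log2 change of 3.86 ± 0.22 (adjusted p = 7.12e-13). In DBA it read 4019, 4802 and 5732 after pristane, against 323, 264 and 150.4 in controls, a change of 4.21 ± 0.26 (adjusted p = 2.46e-12). After pristane the strains overlapped at this time. The other 3 Msr1 probe sets also rose in all 5 responses, by 3.27 to 4.09 for 1422062_at, 3.20 to 3.88 for 1425434_a_at and 2.05 to 2.99 for 1425435_at, and the 4 correlated pairwise at 0.94 to 0.98 over the arrays.

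Olr1, the lectin-like receptor for oxidised LDL, was under the threshold on every control array and above it on every treated one. At day 3 it read 820.0, 924 and 635 in treated BALB/c mice, against 23.9, 18.2 and 36.8 in controls. The F1 arrays read 1162, 408 and 656 after pristane, against 19.4, 23.3 and 19.4 in controls, and the DBA arrays 1388, 953 and 504, against 25.2, 7.8 and 11.2 in controls. The lowest treated array, of the F1, was above the highest control of any strain. At day 18 the treated BALB/c arrays read 1215, 542, 793 and 800.2, against 6.7, 36.0, 35.4 and 37.8 in controls, and the treated DBA arrays 1599, 1112 and 1521, against 36.9, 3.6 and 28.3 in controls. Fitted log2 changes ran from 3.95 in the F1 to 4.97 in DBA at day 18, each with an SE of 0.31 to 0.36 and a largest adjusted p of 3.86e-09, in a probe set that passed the filter through these treated arrays. Against the threshold, the treated means were at least 7.56-fold higher in BALB/c, 6.54-fold in the F1 and 8.42-fold in DBA at day 3, and 7.75-fold in BALB/c and 13.4-fold in DBA at day 18.

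**Figure D2:**
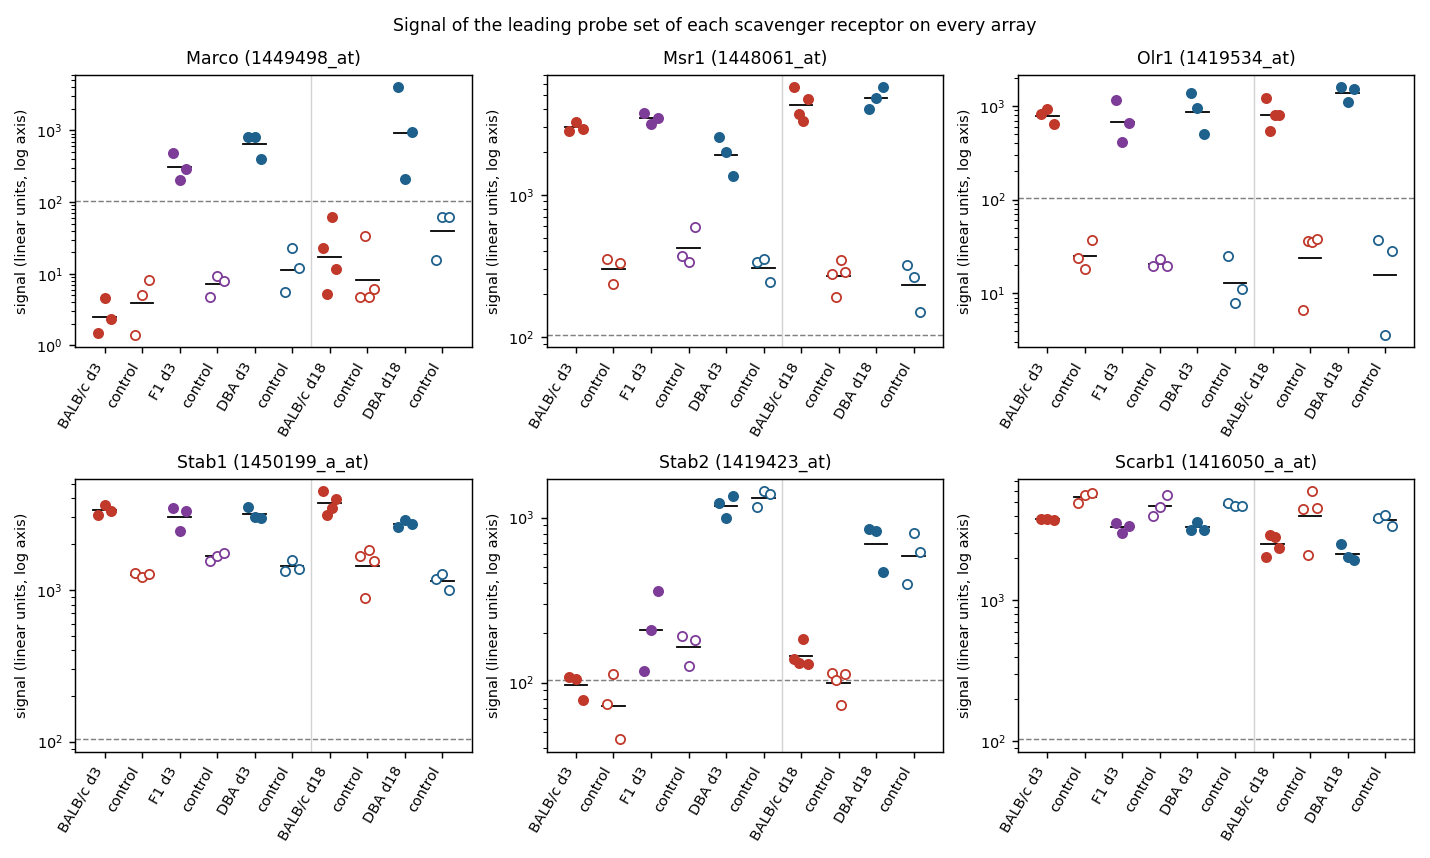
MAS5 signal (linear units on a log axis) of the leading probe set of each member on all 32 arrays; filled points are pristane-treated, open points are controls of the same strain and run, black bars are geometric means, the dashed line is the threshold of 103.7, and day 3 groups stand left of the grey line. Marco crosses the threshold only on treated DBA and F1 arrays, and Stab2 separates DBA from BALB/c whether treated or not.

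Stab1, the stabilin shared by sinusoidal endothelium and macrophages, rose in each of the 5 responses. At day 3 it read 3127, 3624 and 3321 in treated BALB/c mice, against 1300.1, 1206 and 1274 in controls, a log2 change of 1.39 ± 0.18 (adjusted p = 1.36e-06). The changes were 0.86 ± 0.18 in the F1 (adjusted p = 0.00063) and 1.13 ± 0.18 in DBA (adjusted p = 4.12e-05) at day 3, and 1.36 ± 0.16 in BALB/c (adjusted p = 1.13e-07) and 1.23 ± 0.18 in DBA (adjusted p = 4.12e-06) at day 18. Every treated array was above every control of its comparison, as were 23.8%, 23.2% and 25% of all probe sets in BALB/c, the F1 and DBA at day 3 and 15.5% and 27.1% in BALB/c and DBA at day 18. Untreated tissue already gave signals of 880.2 to 1835.

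Stab2, the hyaluronan-clearing stabilin, showed no called response and the one called strain difference among untreated members. In the day 3 run it read 73.6, 113 and 45.3 in BALB/c controls and 1159, 1446 and 1388 in DBA controls, with 191, 126 and 182 in F1 controls. Every BALB/c control was below every DBA control, and the F1 controls lay nearer to BALB/c. The log2 difference, BALB/c minus DBA, was -3.78 ± 0.29 (SE, 3 against 3 arrays, adjusted p = 3.17e-10). It was the only one of the 12 probe sets called in untreated mice, where 7.42% of all probe sets were called and 3.75% were lower in BALB/c. Every Stab1 signal of BALB/c controls was also below every one of DBA controls, as were 14% of all probe sets, but the difference of -0.18 ± 0.18 was not called, and 1 Msr1 probe set (1422062_at) lay above on every BALB/c array (14.6% of all), also uncalled. The F1 controls differed from the mean of the parents by -0.95 ± 0.25 (adjusted p = 0.107), and 0 members were called in that comparison (0.448% of all probe sets); 1 higher and 1 lower member had an unadjusted p under 0.05 in limma, and the ordinary linear model called 0. Xist was below Kdm5d on the 3 F1 controls and above it on all BALB/c and DBA controls of that run, so hybrid genotype and sex cannot be told apart here. The interval of the F1 difference at 95% ran from -1.47 to -0.43.

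The strain difference of Stab2 was also visible in the signals of treated mice. After pristane at day 3 it read 108, 105 and 78.0 in BALB/c, 118, 209 and 359.9 in the F1 and 1223, 1002 and 1344 in DBA. At day 18 it read 138, 132, 184 and 130.1 in treated BALB/c mice, against 115, 103, 73.0 and 113 in controls, and 849, 833 and 465 in treated DBA mice, against 397, 805 and 622 in controls. Each DBA array was above each BALB/c array in either state and at both times, but the day 18 strains lie in different runs and were not tested against each other. The share of all probe sets that separate in this way was taken for the untreated day 3 run alone, at 14%. The responses were 0.30 ± 0.29 in BALB/c (adjusted p = 0.481), 0.31 ± 0.29 in the F1 (adjusted p = 0.457) and -0.16 ± 0.29 in DBA (adjusted p = 0.751) at day 3, and 0.44 ± 0.25 in BALB/c (adjusted p = 0.171) and 0.23 ± 0.29 in DBA (adjusted p = 0.563) at day 18. All 4 treated BALB/c arrays of day 18 were above their 4 controls, as 15.5% of all probe sets were. Set against the mean of the parental controls in place of the F1 controls, a choice made after seeing the data, the F1 value of Stab2 was -0.64 (adjusted p = 0.0457). That value includes the untreated difference between the F1 and the mean of its parents, so it is not a response to pristane alone.

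Scarb1, the HDL receptor, was the one member called lower after pristane. The calls were made at day 18, and the response at day 18 minus that at day 3 was -0.14 ± 0.29 in BALB/c (adjusted p = 0.909) and -0.27 ± 0.31 in DBA (adjusted p = 0.765), so a difference between the times was not shown. At day 3 its leading probe set (1416050_a_at) read 3799.9, 3792 and 3707 in treated BALB/c mice, against 4894, 5591 and 5803 in controls. It read 3516, 3001 and 3375 in the treated F1, against 3951, 4568 and 5635 in controls, and 3155, 3578 and 3170.5 in treated DBA, against 4929, 4680.2 and 4639 in controls. Every treated array was below every control in all 3 strains, as were 25.5% of all probe sets in BALB/c, 24.7% in the F1 and 20.6% in DBA. The log2 values of -0.52 ± 0.22, -0.50 ± 0.22 and -0.52 ± 0.22 did not pass the test (adjusted p = 0.0735, 0.0843 and 0.0847).

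At day 18 Scarb1 read 2033, 2899.5, 2823 and 2369 in treated BALB/c mice, against 4484, 2085, 5946 and 4502 in controls. In DBA it read 2499, 2048 and 1942 after pristane, against 3815, 4037 and 3385 in controls, without overlap (29.1% of all probe sets were lower in that way). It fell by 0.66 ± 0.19 in BALB/c (adjusted p = 0.00672) and by 0.79 ± 0.22 in DBA (adjusted p = 0.00478) on the log2 scale. The BALB/c groups overlapped through control replicate 2, the array that stands apart. Without that array, which enters the spread of each probe set in all comparisons, the BALB/c value was -0.97 (adjusted p = 7.52e-07), and the day 3 values of the leading probe set passed in BALB/c, the F1 and DBA (adjusted p = 0.00296, 0.00408 and 0.00365). With it left out, 9, 11 and 11 of the 12 members were called at day 3, against 37.7%, 38.1% and 32.2% of all probe sets. A fit on the BALB/c day 18 arrays alone left the Scarb1 fall uncalled (adjusted p = 0.147). The other 2 Scarb1 probe sets stood between -0.57 and -0.44 at day 3 and fell by 0.67 and 0.73 in BALB/c and by 0.61 and 0.74 in DBA at day 18.

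The strain, hybrid and time differences between responses were tested next. BALB/c minus DBA at day 3 called 1 of the 12 members, Marco (1449498_at), at -4.25 ± 0.83 (adjusted p = 0.0178), where 0.403% of all probe sets were called and 0.111% were lower. As Marco passed the filter through treated DBA and F1 arrays alone, this describes the values above and is not an independent test. Its second probe set stood at -2.96 ± 0.73 (adjusted p = 0.0708). The Marco call was lost without replicate 2 of the treated DBA arrays (adjusted p = 0.0504). At day 18, where 0.662% of all probe sets were called and 0.362% were lower, both Marco probe sets were lower in the BALB/c response, at -3.47 ± 0.77 (adjusted p = 0.0316) and -3.37 ± 0.69 (adjusted p = 0.0183). Both calls were lost without an offset (adjusted p = 0.217 and 0.231) and without single arrays of the day 18 groups, the first at adjusted p = 0.0531 to 0.097 and the second at 0.0556 and 0.0574.

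The Marco response of the F1 was not separated from that of either parent by the test. F1 minus BALB/c at day 3 gave 3.47 ± 0.83 for its leading probe set (adjusted p = 0.0803, and 0.0379 without the array that stands apart), and F1 minus DBA gave -0.78 ± 0.83 (adjusted p = 0.828), with a 95% interval from -2.48 to 0.92. In limma 0 members were called in either F1 difference, where 0.148% and 1.53% of all probe sets were; 3 and 0 members had an unadjusted p under 0.05, and the ordinary linear model called 0 in both. These comparisons share the treated F1 arrays and their controls. Xist was below Kdm5d on the F1 controls and above it on the treated F1 and on all parental arrays of that run. Hybrid genotype and sex therefore cannot be told apart in these differences.

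Day 18 minus day 3 compared responses between the times. Xist was above Kdm5d on 3 of 3 arrays in each BALB/c and DBA group of the day 3 run. At day 18 that held on 2 of 4 arrays in each BALB/c group and 1 of 3 in each DBA group. Time, run and sex make-up therefore cannot be told apart in these differences. In DBA, 1 member was called higher, Msr1 (1448061_at), by 1.68 ± 0.36 (adjusted p = 0.00997), where 2.67% of all probe sets were called and 1.67% were higher. The other 3 Msr1 probe sets stood at 0.82, 0.61 and 0.95 in that difference and were not called. In BALB/c the same Msr1 probe set stood at 0.67 ± 0.34 (adjusted p = 0.509), and limma called 0 members (0.263% of all probe sets), as did the ordinary linear model, with 0 at an unadjusted p under 0.05. Olr1 differed between times by 0.00 ± 0.47 in BALB/c, with a 95% interval from -0.97 to 0.97, and by 0.43 ± 0.51 in DBA, from -0.60 to 1.47.

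**Figure D3:**
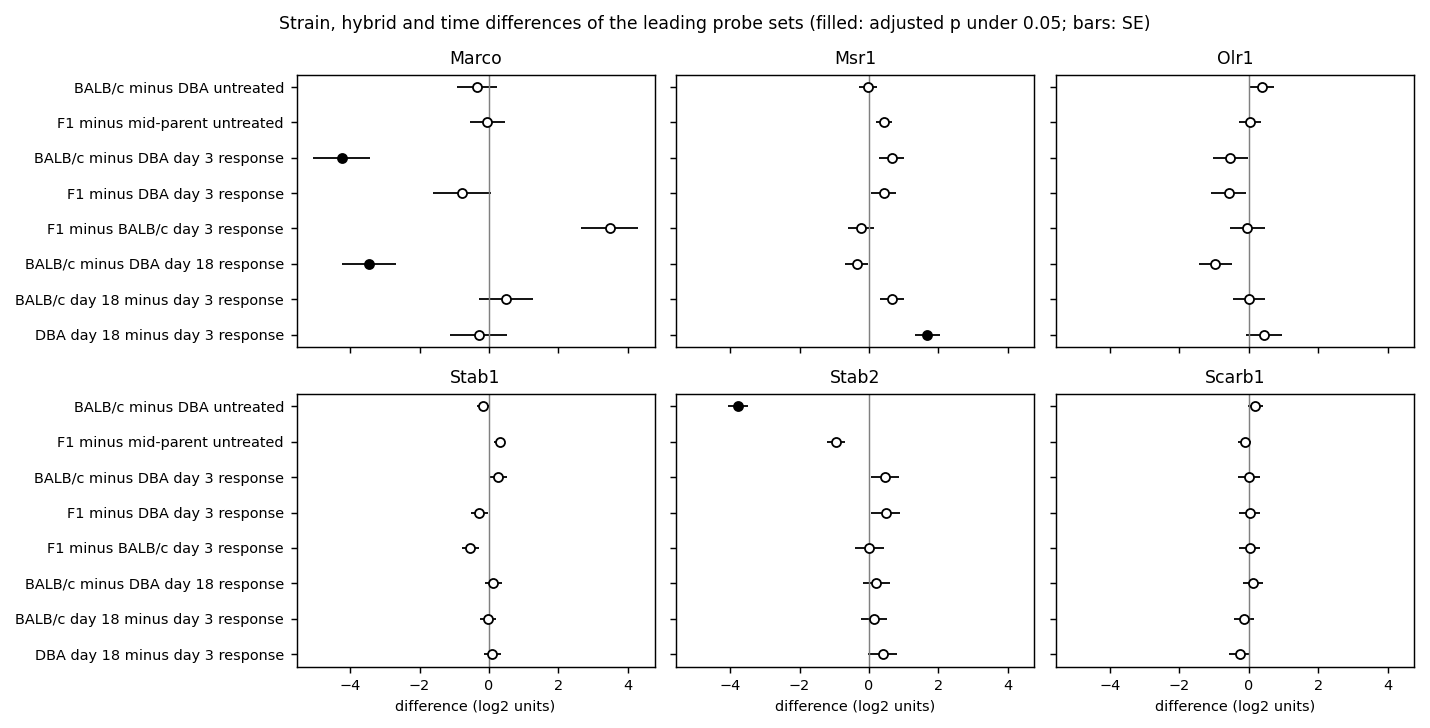
Untreated strain and hybrid differences and differences between responses for the leading probe set of each member, in log2 units; filled points have a limma adjusted p under 0.05 and bars are SE. The filled points are Marco in both BALB/c minus DBA responses (-4.25 and -3.47), Msr1 in DBA day 18 minus day 3 (1.68) and Stab2 in untreated BALB/c minus DBA (-3.78).

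The wider family of scavenger receptors was called in both directions, as were all probe sets. Of all probe sets, 29.5%, 30.2% and 23.6% were called in BALB/c, the F1 and DBA at day 3, and 37.9% and 39.4% in BALB/c and DBA at day 18. Of 16 further scavenger receptor genes, 14 were tested, each by its brightest kept probe set, and 7 rose and 2 fell in BALB/c, 6 rose and 2 fell in the F1 and 7 rose and 0 fell in DBA at day 3. At day 18, 7 rose and 2 fell in BALB/c and 7 rose and 1 fell in DBA. The list medians were 0.33, 0.27 and 0.58 at day 3 and 0.66 and 0.69 at day 18, beside medians of all genes between -0.04 and 0.00. Cd68, a lysosomal glycoprotein of macrophages, rose by 2.30 to 3.52, and Cxcl16, a membrane-bound chemokine that also binds oxidised LDL, by 0.76 to 3.06. Mrc1, the mannose receptor, rose by 0.75 to 1.97 in the 5 responses. Cd5l, a secreted protein of resident macrophages, rose by 4.60 in BALB/c, 2.86 in the F1 and 1.80 in DBA at day 3 and by 2.33 in BALB/c at day 18, and stood at 1.26 in DBA at day 18 (adjusted p = 0.0526). Cd36, a class B receptor for fatty acids and oxidised LDL, fell by 1.11 in BALB/c and 0.84 in the F1 at day 3 and by 0.95 and 1.23 in BALB/c and DBA at day 18, and stood at -0.09 in DBA at day 3. Scarb2, also of class B, fell in none of the 5 responses. It rose by 0.46 in DBA at day 18 (adjusted p = 0.00594) and stood between -0.05 and 0.21, uncalled, in the others.

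**Figure D4:**
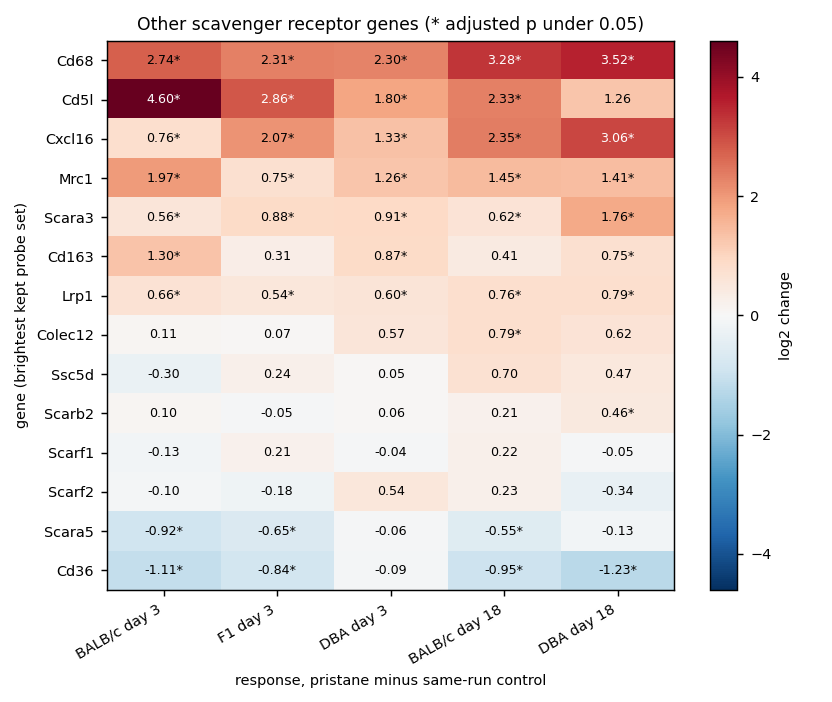
Log2 change, pristane minus untreated controls of the same strain and run, of the 14 tested genes of the wider scavenger receptor list (rows, brightest kept probe set) in the 5 responses (columns); an asterisk marks a limma adjusted p under 0.05. Cd68, Cxcl16, Mrc1, Scara3 and Lrp1 carry it in all 5 columns on the positive side, and Cd36 in 4 on the negative side.

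Genes that handle the sterol cargo of these receptors were called in both directions. Of 12 tested, 5 rose and 3 fell in BALB/c, 5 and 2 in the F1 and 3 and 2 in DBA at day 3. At day 18 it was 5 and 3 in BALB/c and 6 and 3 in DBA. Of all probe sets 29.5%, 30.2% and 23.6% were called in the 3 day 3 responses and 37.9% and 39.4% in those of day 18, also in both directions, and the list medians were -0.09, 0.04 and 0.22 at day 3 and 0.39 and 0.50 at day 18. Abcg1, a cholesterol exporter, rose by 0.46 to 2.05, and Lipa, the lysosomal acid lipase, by 0.99 to 1.80 in the 5 responses. Vldlr, a receptor for triglyceride-rich lipoproteins, fell by 0.81 to 1.69 on the log2 scale, while Abca1, another cholesterol exporter, fell by 0.45 in the F1 (adjusted p = 0.0444) and passed the test in no other response. Of 4 tested ligands and partners of the stabilins, 2 rose and 0 fell in each day 3 response, 1 rose and 0 fell in BALB/c at day 18, and 1 rose and 1 fell in DBA at day 18. Tgfbi, a secreted matrix protein, rose in all 5 responses by 0.70 to 1.53, and Sparc, a matrix protein cleared through Stab1, passed the test in DBA at day 3 alone (0.52).

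Markers of cell types were called in the same responses. The shares of all probe sets called were 29.5%, 30.2% and 23.6% in BALB/c, the F1 and DBA at day 3. They were 37.9% and 39.4% in BALB/c and DBA at day 18. Of 10 tested macrophage and monocyte markers, 8, 8 and 9 rose in BALB/c, the F1 and DBA at day 3 and 10 and 10 in BALB/c and DBA at day 18, with medians of 1.75 to 2.21. Their summed signal ran from 45782 to 59108 on the treated BALB/c arrays of day 3, against 25471 to 30179 in controls, and from 52131 to 74081 on the treated DBA arrays of day 3, against 22990 to 24658 in controls. The list median at day 3 was 1.94 in BALB/c and 1.75 in DBA, and at day 18 2.12 in BALB/c and 2.21 in DBA. Of 8 markers of resident large peritoneal macrophages, 4 rose and 1 fell in BALB/c, 5 and 1 in the F1 and 4 and 0 in DBA at day 3. At day 18 it was 3 and 1 in BALB/c and 3 and 2 in DBA. Among them Vsig4, a complement receptor, rose by 1.11 to 2.46 in all 5 responses, and Gata6, the transcription factor of large peritoneal macrophages, rose by 0.41 to 1.14 in 4, with 0.26 in BALB/c at day 18 not called. Prg4, a lubricating proteoglycan, fell by 0.74 in BALB/c and 1.06 in the F1 at day 3 and by 1.39 in DBA at day 18, and Icam2, an adhesion molecule also carried by endothelium, fell at day 18 by 0.45 in BALB/c and 0.64 in DBA. Their part in the receptor changes was not tested.

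Lymphatic and sinusoidal markers bear on the stabilins. Their counts stand beside 29.5%, 30.2% and 23.6% of all probe sets called in BALB/c, the F1 and DBA at day 3. At day 18 the shares were 37.9% in BALB/c and 39.4% in DBA. The defining lymphatic gene Prox1 and the sinusoidal gene Oit3 were under 103.7 on every array, and Clec4g, a lectin of sinusoidal endothelium, on every array outside the BALB/c controls of the day 18 run. Of the 8 tested markers of this list, 4 rose and 3 fell in BALB/c, 3 rose and 3 fell in the F1 and 4 rose and 0 fell in DBA at day 3. At day 18 it was 4 and 1 in BALB/c and 4 and 0 in DBA. Fcgr2b and Pdpn rose in each response. At day 3 Fcgr2b rose by 2.55 in BALB/c, 2.22 in the F1 and 2.46 in DBA, and Pdpn by 1.26, 0.84 and 1.18. At day 18 Fcgr2b rose by 2.48 in BALB/c and 3.57 in DBA, and Pdpn by 1.72 and 1.24. Cd209b rose at day 3 alone, by 1.29, 0.99 and 1.39 in BALB/c, the F1 and DBA. Which cells carried these genes was not tested, so neither the counts nor the summed signal below are read as endothelial. Lyve1, a hyaluronan receptor of lymphatic endothelium and of some macrophages, rose at day 3 by 1.61 in BALB/c and 0.89 in DBA and at day 18 by 1.18 in BALB/c and 1.01 in DBA, and stood at 0.41 in the F1. Other lymphatic markers fell at day 3 in BALB/c and the F1: Reln, a secreted glycoprotein, by 0.91 and 1.28, Mmrn1, a multimerin, by 0.86 and 0.77, and Flt4, the receptor for VEGF-C, by 0.42 and 0.40. None of these 3 was called in DBA at day 3, and Flt4 rose at day 18 by 0.51 in BALB/c and 0.54 in DBA. In untreated mice, where 7.42% of all probe sets were called, 1 of the 8, Pdpn, differed between BALB/c and DBA (0.91, adjusted p = 0.00273). Its direction was opposite to that of Stab2. The summed signal of the list ran from 10979 to 11445 in BALB/c controls and from 8760 to 10205 in DBA controls of the day 3 run, and its part in the Stab2 difference was not tested.

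Markers of fat and blood vessels are given beside Scarb1. At day 3, 29.5%, 30.2% and 23.6% of all probe sets were called in BALB/c, the F1 and DBA, in either direction. At day 18 it was 37.9% in BALB/c and 39.4% in DBA. Of 8 tested adipocyte markers, 7 fell in BALB/c, 6 in the F1 and 1 in DBA (Retn, the adipokine resistin, by 1.27) at day 3, and all 8 in both strains at day 18, with medians of -1.39, -1.14, -0.72, -1.38 and -2.19. Their summed signal ran from 53289 to 57087 on treated BALB/c arrays at day 3, against 102080 to 135768 in controls, and from 67015 to 80954 on treated DBA arrays, against 93959 to 112812 in controls. At day 18 it ran from 28764 to 59799 on treated BALB/c arrays, against 96641 to 137613 in controls, and from 14736 to 50768 on treated DBA arrays, against 95594 to 101106 in controls. In DBA at day 3, where Scarb1 stood at -0.52, Adipoq, the adipokine adiponectin, stood at 0.04. All the other tested adipocyte markers were below 0 there, from -0.45 for Cidec to -1.27 for Retn. Of 10 blood endothelial markers, 5, 5 and 2 fell at day 3 in BALB/c, the F1 and DBA and 7 and 9 at day 18 in BALB/c and DBA, and 0 rose. The part of these markers in the Scarb1 values was not tested. The ratio of 3′ to 5′ beta-actin signal, a sign of RNA quality, ran from 1.63 to 2.21 on treated BALB/c arrays of day 3, against 2.10 to 2.60 in controls, from 1.37 to 1.69 in the treated F1, against 2.07 to 2.15, and from 1.83 to 2.01 in treated DBA, against 2.15 to 2.87. At day 18 it ran from 1.12 to 1.22 on treated BALB/c arrays, against 1.29 to 2.29 in controls, and from 1.16 to 1.23 in treated DBA, against 1.26 to 1.35, and its part was not tested either.

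The levels of each member, by its leading probe set, were ordered over the 10 groups, with neighbours compared by whether their arrays overlap. The share of all probe sets with such gaps was not taken, so the gaps only describe the members. For Marco the 3 groups above the threshold, DBA at day 18, DBA at day 3 and the F1 at day 3, overlapped in sequence, and the only gap was between the F1 at day 3 and the DBA controls of the day 18 run. For Olr1 the only gap was between the lowest treated group, the F1 at day 3, and the controls. Msr1 had 2 gaps, above and below treated DBA at day 3, the group above being treated BALB/c at day 3 with 2985 ± 227 (SD, n = 3), against 1969 ± 589 in treated DBA (SD, n = 3). For Stab1 the 5 treated groups came first and overlapped in sequence, with a gap to the controls, and for Scarb1 the only gap lay between the treated F1 of day 3 and treated BALB/c of day 18. For Stab2 the 4 DBA groups came first, the F1 groups next and the 4 BALB/c groups last, but its gaps did not follow strain alone. They lay between treated DBA of day 3 and of day 18 and between DBA controls of the day 18 run and the treated F1. A further gap lay between treated BALB/c of day 18 and its controls, while the F1 controls overlapped treated BALB/c of day 18. Untreated DBA arrays of the day 3 run were all above those of the day 18 run. Other probe sets of the same genes differed. Marco 1458297_s_at and Scarb1 1455820_x_at had no gap, and Scarb1 1437378_x_at had its gap between treated DBA of day 3 and of day 18. Treated BALB/c and treated DBA of day 3 overlapped on Msr1 1425434_a_at and 1425435_at, which kept the gap below treated DBA.

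Correlations over the 32 arrays, which share 10 group means and the treatment, describe how the members go together. Msr1 and Olr1 correlated at 0.96, Msr1 and Stab1 at 0.94 and Stab1 and Olr1 at 0.90. Stab2 stood apart from Msr1 (0.01), Stab1 (-0.01) and Olr1 (0.07), Marco correlated at 0.61 with Olr1, 0.54 with Stab2, 0.51 with Msr1 and 0.39 with Stab1, and Scarb1 was negative with all 5, from -0.18 with Stab2 to -0.70 with Olr1. Of all tested genes, the ones most like Msr1 were Fcer1g, the common gamma chain of Fc receptors (0.988), Cd68 (0.987) and Spi1, which encodes PU.1 (0.987). Olr1 was most like Clec7a, the beta-glucan receptor (0.974), Itgb2 (0.974) and P2ry6 (0.972), and Stab1 was most like Dab2 (0.966), Rab31 (0.966) and Csf2ra (0.961). Marco was most like Cd300ld (0.902), Best1 (0.888) and St3gal1 (0.862), Stab2 like Sfi1 (0.931), Pam (0.905) and Paip1 (0.888), and Scarb1 like Slc25a44 (0.947), Pex14 (0.922) and Aco1 (0.922).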

How the data were processed

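RNA of the mesentery was measured on 32 arrays in 10 groups. The deposited intensity values are linear MAS5 signals from GCOS, per the submitters' processing notes, whose versions the sources used here do not give; their 2% trimmed mean is 500 on every array, and no pair of arrays is identical. The authors' test was ANOVA in Partek Genomics Suite, per the series text. Probe sets were named by GEO's platform annotation: 34958 had 1 symbol, 932 several and 9211 none, and probe sets with several or none were not named; 64 array controls were left out. Signals were fitted as log2(signal + 24.9), the offset being the 25th percentile of all values, with limma 3.58.1 in R 4.3.3 (lmFit, eBayes with an intensity trend) and 1 mean per group over all 32 arrays. P-values (two-sided) were adjusted by Benjamini-Hochberg over 27039 probe sets. Replicates were numbered by accession order, which pairs nothing. The procedure was tested on simulated data.

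The members, the lists and the motifs were chosen with earlier results of these data known. Named are every probe set of the members, the genes of the fixed lists, and per member the 3 genes with the highest Pearson correlation to its leading probe set. Each list gene was taken by its brightest kept probe set. Alternatives were a floor instead of the offset, no offset, no filter, a filter at 519.2, quantile or median scaling, the brightest probe set per gene, a separate fit, no trend, an ordinary linear model, array weights, Xist as a covariate and each array left out.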

Additional observations from a re-analysis of the deposited data

Results flagged for a closer look

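Among 24 groups of 4 arrays tested for a value far from the rest (a gap to the nearest array above the 95% critical value of Dixon's ratio), 2 were found, and chance gives about 1 in 20. Olr1 read 6.7 on replicate 1 of the BALB/c controls in the day 18 run, with the other 3 between 35.4 and 37.8, and Marco (1449498_at) read 33.3 on replicate 2 of the same group, with the other 3 at 6.1 or less. All these values are under the threshold of 103.7.

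Differences between responses with a limma adjusted p under 0.05 were those of Marco and Msr1. BALB/c minus DBA was -4.25 for Marco 1449498_at at day 3, and -3.47 for 1449498_at and -3.37 for 1458297_s_at at day 18. Marco passed the filter through treated DBA and F1 arrays alone, so these values are descriptions and not an independent test. Each of these Marco calls was also lost when certain single arrays were left out. DBA at day 18 minus day 3 was 1.68 for Msr1 1448061_at.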

How the results depend on the processing

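Of 6785 values of single member probe sets under the alternatives, 6695 kept their side of the threshold and, where called, their direction. Of the rest, 21 lost a call, 68 gained one and 1 turned round while called. The last was Stab2 in the F1 at day 3 with parental controls (-0.64, chosen after seeing the data, against 0.31 with F1 controls). That value holds the untreated difference between the F1 and its parents as well as the response. It is therefore not a second measure of the pristane response. Among values called under neither setting, 150 had the other sign. The calls of Msr1, Olr1 and Stab1 in the 5 responses and of Stab2 between untreated strains held under each alternative run on them. With the brightest probe set per gene, which has fewer probe sets by construction, the members called were 3 in BALB/c (6 with all probe sets), 4 in the F1 (8) and 4 in DBA (8) at day 3, at day 18 4 in BALB/c (9) and 5 in DBA (11), and 1 (2) in BALB/c minus DBA at day 18. Array weights called 2 in F1 minus mid-parent (0 without them), 2 in BALB/c minus DBA at day 3 (1), 2 in F1 minus BALB/c (0) and 2 in DBA day 18 minus day 3 (1). BALB/c minus DBA at day 3 also called 2 with a floor in place of the offset and with a separate fit, which called 1 in F1 minus BALB/c. BALB/c minus DBA at day 18 called 0 without an offset, with the stricter filter and with a separate fit, and 1 by the ordinary linear model; the cause was not tested.

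With each array left out in turn, the members called ran from 6 to 9 in BALB/c, 8 to 11 in the F1 and 8 to 11 in DBA at day 3, at day 18 from 9 to 9 in BALB/c and 10 to 11 in DBA, 1 to 1 between untreated strains, 0 to 0 for F1 minus mid-parent, 0 to 2 for BALB/c minus DBA at day 3, 0 to 0 for F1 minus DBA, 0 to 1 for F1 minus BALB/c, 0 to 2 for BALB/c minus DBA at day 18, 0 to 0 for BALB/c and 1 to 1 for DBA in day 18 minus day 3. The day 18 Marco difference of 1449498_at lost its call without replicate 2 or 4 of treated BALB/c, replicate 3 of treated DBA or any DBA control of its run (adjusted p = 0.0531 to 0.097), and that of 1458297_s_at without DBA control replicate 1 or 3 (0.0574 and 0.0556). At day 3 BALB/c minus DBA lost its Marco call without treated DBA replicate 2 and gained 1458297_s_at without each of the 3 arrays named next. F1 minus BALB/c called Marco without BALB/c control replicate 2 of the day 18 run or treated DBA replicate 1 or 2 of day 18 (adjusted p = 0.0379, 0.0142 and 0.00969). The Scarb1 probe set 1455820_x_at lost its DBA day 18 call without treated replicate 2 or 3 or control replicate 2. Over all probe sets, the count called was 7972 in BALB/c (4618 to 11900 over all alternatives), 8164 in the F1 (4752 to 12571) and 6368 in DBA (3877 to 9667) at day 3, at day 18 10261 in BALB/c (5499 to 11277) and 10663 in DBA (6166 to 13957), 2005 between untreated strains (997 to 3481), 121 for F1 minus mid-parent (26 to 1546), 109 for BALB/c minus DBA at day 3 (42 to 1146), 413 for F1 minus DBA (262 to 2055), 40 for F1 minus BALB/c (10 to 945), 179 for BALB/c minus DBA at day 18 (8 to 1155), and 71 for BALB/c (22 to 419) and 721 for DBA (328 to 3660) in day 18 minus day 3. No paired analysis was possible because the labels give no replicate numbers shared between groups. Groups of 3 or 4 arrays limit the precision, and per-probe values were not analysed here.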

Other observations

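Among marker lists not described above, 8 neutrophil genes were tested, and 6 rose in BALB/c, 5 in the F1 and 3 in DBA at day 3 and all 8 in both strains at day 18, with medians of 1.79 to 3.41. Cxcr2 and Mmp8 of that list were under 103.7 on every control array, so they passed the filter through treated arrays only. Of 7 B and T cell markers, 4 rose in the F1 at day 3, and at day 18 5 rose in BALB/c and 3 in DBA (1 fell in DBA). Cd4, among those 4, was under 103.7 on every array outside the treated day 18 groups, and passed the filter through these alone. At day 3 limma called 0 in BALB/c and DBA, where 2 and 0 had an unadjusted p under 0.05. Of 5 mesothelial markers, 1 rose and 1 fell in BALB/c, 2 rose in the F1 and 2 rose in DBA at day 3, and 3 rose and 1 fell in each strain at day 18. For each list here, the shares of all probe sets called were 29.5%, 30.2% and 23.6% in BALB/c, the F1 and DBA at day 3. They were 37.9% and 39.4% in BALB/c and DBA at day 18, and nothing is read from the counts of such short lists. Of 4 intestinal epithelial markers, 2 fell in the F1 at day 3, and at day 18 1 rose in BALB/c while 1 fell in DBA. Their summed signal was uneven among arrays of a group. It ran from 583.6 to 15519.4 (median 738.8) on F1 controls, against 311.1 to 401.5 on the treated F1. On treated BALB/c arrays of day 18 it ran from 391 to 6389.9, against 563.4 to 735.2 in controls. The part of single arrays in these calls was not tested. For 7 pancreatic acinar markers limma called 0 in each response, with 1 at an unadjusted p under 0.05 in BALB/c at day 3 and 0 in the others, and list medians between -0.30 and 1.53.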
